A study of Homo sapiens with 6 samples.

Results

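ATP-dependent chromatin remodelers are described here in HUDEP-2 cells in which MEN1 was knocked down with an shRNA. The 43 genes were chosen by symbol, from the subunits of the SWI/SNF complexes, the ISWI and INO80-type complexes and the CHD ATPases outside the NuRD complex, out of 62754 genes in the deposited tables. They comprise 27 SWI/SNF genes and 16 genes of the other families.

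Remodelers are machines with an ATPase motor that slides, ejects or exchanges nucleosomes. SWI/SNF complexes are built on 1 motor, SMARCA4 or SMARCA2, and a shared core, and come in a canonical form (BAF) marked by ARID1 and DPF subunits, a form marked by ARID2, PBRM1, BRD7 and PHF10 (PBAF) and a non-canonical form marked by BRD9 and BICRA or BICRAL. Many positions in them can be filled by alternative paralogs, and SMARCA4 is known to be needed for globin gene activation in red cell precursors. ISWI motors mainly space nucleosomes, CHD motors act around transcribed genes and enhancers, and INO80, SRCAP and EP400 handle the histone variant H2A.Z.

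HUDEP-2 is an established human line of immortalised red cell progenitors with mostly adult hemoglobin, and menin, the product of MEN1, is a subunit of the histone methyltransferase complexes of KMT2A and KMT2B. The medium of both groups held doxycycline (1 µg per ml), dexamethasone (1e-06 M), stem cell factor (50 ng per ml) and erythropoietin (3 units per ml). Both groups were transduced with a lentivirus, put under puromycin at 2 µg per ml from 24 h for 48 h and profiled 72 h after transduction. The treated group (n = 3) carried a MEN1 shRNA (the knockdown libraries below) and the control group (n = 3), with a genotype given as WT, a non-targeting shRNA. Replicates are called biological in the titles. The labels name 1 hairpin, so loss of MEN1 cannot be told apart from effects of this hairpin on other genes.

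Promoters are shown first for 4 remodeler genes with an entry in the RefSeq promoter table and with large changes described below: SMARCA2 and BCL7A, which fell most, and DPF3 and CHD2, which rose most. KMT2A, the partner of menin, has a domain that binds unmethylated CpG DNA, so CpG dinucleotides are set in capitals and the rest in lower case. Each line gives the 250 bases before the first RefSeq start listed for the gene on GRCh38.p14, 5′ to 3′ on the strand of the gene. The SMARCA2 window is chr9:2015097-2015346 (plus strand), the BCL7A window chr12:122021634-122021883 (plus strand), the DPF3 window chr14:72894102-72894351 (minus strand) and the CHD2 window chr15:92900074-92900323 (plus strand).
SMARCA2: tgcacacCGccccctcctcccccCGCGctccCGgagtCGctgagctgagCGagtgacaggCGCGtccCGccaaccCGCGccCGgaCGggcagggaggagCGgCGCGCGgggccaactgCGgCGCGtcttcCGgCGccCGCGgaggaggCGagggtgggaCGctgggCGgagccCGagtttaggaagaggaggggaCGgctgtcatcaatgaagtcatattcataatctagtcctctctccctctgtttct
BCL7A: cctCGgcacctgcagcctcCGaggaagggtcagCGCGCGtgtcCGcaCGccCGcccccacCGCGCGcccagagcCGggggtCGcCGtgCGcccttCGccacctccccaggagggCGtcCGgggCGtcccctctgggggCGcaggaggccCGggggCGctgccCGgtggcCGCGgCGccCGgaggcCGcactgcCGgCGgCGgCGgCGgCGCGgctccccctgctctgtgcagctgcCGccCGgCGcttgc
DPF3: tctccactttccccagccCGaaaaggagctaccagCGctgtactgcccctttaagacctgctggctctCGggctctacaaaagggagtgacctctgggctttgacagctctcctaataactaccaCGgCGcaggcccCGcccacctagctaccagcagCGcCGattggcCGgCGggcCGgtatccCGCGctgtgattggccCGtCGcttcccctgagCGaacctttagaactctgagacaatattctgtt
CHD2: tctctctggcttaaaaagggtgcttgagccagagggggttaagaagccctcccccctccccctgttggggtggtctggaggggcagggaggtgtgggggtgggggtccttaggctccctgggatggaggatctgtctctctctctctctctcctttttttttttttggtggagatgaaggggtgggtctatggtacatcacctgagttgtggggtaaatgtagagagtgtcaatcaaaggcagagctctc

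The printed SMARCA2 stretch holds 29 CpG, that of BCL7A 38, that of DPF3 16 and that of CHD2 0. In the table's whole windows of 300 bases, which add the first 50 transcribed bases, the 35 remodeler genes with an entry held a median of 30 CpG (range 3 to 55), against 26 in the 9652 promoters of genes tested and 14 in 27305 promoters of all symbols. The CHD2 window, with 3, had the fewest of the 35. It lies inside the deposited span of CHD2, which starts further upstream, at 92886203. The SMARCA2 and BCL7A windows also lie inside their spans, which start at 1980290 and 122019422, while the DPF3 window directly precedes its span. CpG at other starts of these genes was not counted. The median was 33 in the 14 genes with an entry that were lower with the MEN1 shRNA, 30 in the 15 that did not pass the test, and 23.5 in the 4 that were higher, with ranges of 5 to 47, 7 to 55 and 3 to 49. These ranges overlap.

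Motifs were searched in the same windows on both strands. The GATA motif, AGATAA or TGATAA, was in 1 of the 35 (SMARCA5, 2.86%), against 7.93% of promoters of genes tested. The ETS core CCGGAAG was in 3 (SMARCA2, BCL7B and EP400, 8.57%), against 21.1%. The CCAAT box was in 13 (37.1%), against 37.6%, with 2 copies in the DPF3 window, and the E-box CACGTG was in 2 (5.71%), against 10.8%. A match describes these letters only, and a window without a match says nothing of binding by the factor.

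MEN1 itself (ENSG00000133895, chromosome 11, 64803510 to 64811294, hg38) checks the labels. It was at 6.29, 6.44 and 6.88 TPM (a share of the library's transcripts, scaled for gene length) in the knockdown libraries against 41.2, 39.6 and 37.1 TPM in the controls, so that 16.6% of the control level was left. Depth came to 5560000000 to 10810000000 aligned bases per library. The first principal component, 76.6% of the variance, separated the groups, and MEN1 shRNA replicate 1 lay nearest to the controls on it (-29.97, against -46.14 and -46.86 for its group and 40.04 to 41.52 in the controls). Erythroid markers matched the labelled cell type: 9 of 9 were tested, 6 rose and 0 fell, and their summed TPM was 72400 to 80309 in knockdown libraries against 42549 to 46372 in controls. Of 10 markers of other lineages, 4 were tested and 3 fell (LYZ, ITGA2B and EPCAM), 5 were under 1 TPM in every library, PF4 was listed at 0 in all 6, and the summed TPM was 171 to 194 against 297 to 315. This shift moved with every remodeler result below, and its part in them was not tested. In these bulk samples, fewer cells of a type and less RNA per cell cannot be told apart.

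Most remodeler genes were well expressed in HUDEP-2. Of the 43, 41 passed the filter of at least 1 TPM in 3 or more of the 6 libraries. Their mean TPM over the libraries had a median of 43.2 (range 3.22 to 214), against 15.6 over the 14294 genes tested. SMARCA4 was the highest in controls at 217 ± 5.99 TPM (SD, n = 3), followed by the actin-related core subunit ACTL6A at 153 ± 4.40 TPM and the core subunit SMARCE1 at 118 ± 9.48 TPM. The genes that did not pass were SMARCD3, a SMARCD paralog best known from muscle and brain, with at most 1.38 TPM, and SMARCA1, an ISWI motor, with at most 0.0288 TPM.

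With the MEN1 shRNA, 5 of the 41 remodeler genes tested rose and 17 fell (limma, adjusted p under 0.05 over all genes tested). Over all 14294 genes tested, 22.1% rose and 31.5% fell, and 53.6% changed in either direction. Without control replicate 3, 11 fell, and without control replicate 1, 3 rose. The 22 remodeler genes that changed are 53.7% of those tested, which is near the share of all genes, and the split was 12.2% higher and 41.5% lower. Changes were mostly small: the median size of the log2 fold change was 0.24, against 0.37 over all genes, and 2 of 41 (4.88%) were called with a change of 2-fold or more, against 11.9% of all genes. The 3 MEN1 shRNA libraries did not overlap the 3 controls in 26 of the 41 (63.4%), 20 of them lower, against 61.8% of all genes tested.

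Of the 17 falls, 14 were in SWI/SNF. Of its 26 genes tested, 14 fell (53.8%) and 2 rose (7.69%), against 31.5% and 22.1% of all genes tested. In either direction 61.5% changed, against 53.6% of all genes tested. The median log2 fold change was -0.27, against -0.07 over all genes. In the 15 genes tested outside SWI/SNF, 3 fell (20%) and 3 rose (20%), with a median of -0.08. TPM is a share of the library, and with median-of-ratios scaling, in which the median of all genes moved to 0.008, 11 rather than 17 remodeler genes fell. The genes that were then lower without passing were SMARCE1, BCL7C, ARID1A, SMARCA5, CHD1 and INO80.

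**Figure D1:**
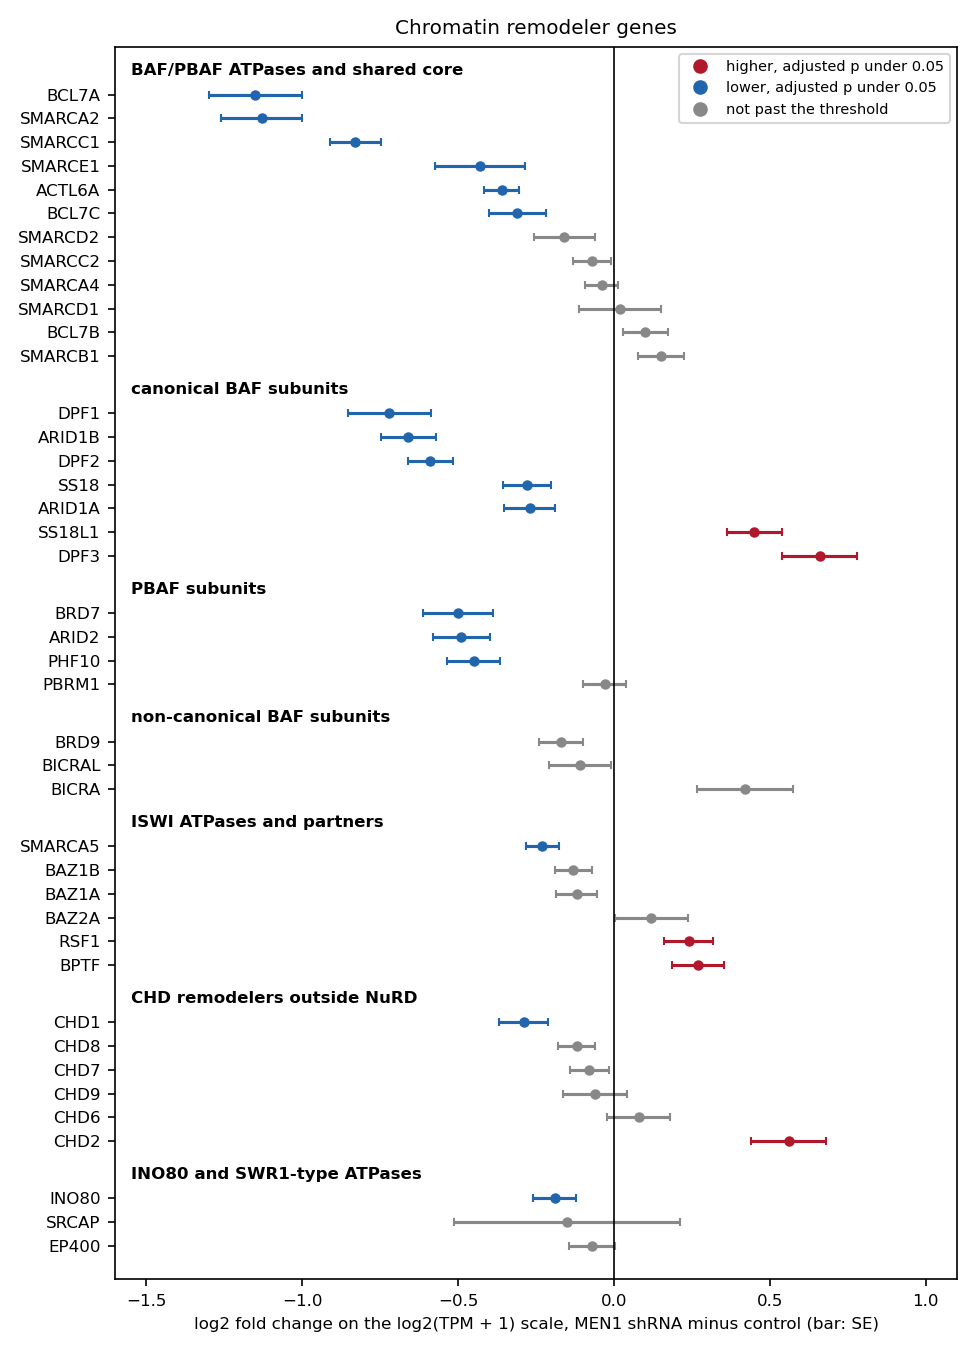
Log2 fold change on the log2(TPM + 1) scale (x axis, MEN1 shRNA minus control) of the 41 remodeler genes tested, by complex, with the standard error as a bar. Blue points fell (17 genes), red points rose (5) and grey points did not pass the threshold (19); the lowest is BCL7A at -1.15 and the highest DPF3 at 0.66.

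Of the SWI/SNF motors, SMARCA2 fell and SMARCA4 did not pass the test. SMARCA2 (ENSG00000080503, chromosome 9, 1980290 to 2193624), the alternative motor also called BRM, was at 45.3, 32.3 and 34.3 TPM in the knockdown libraries against 76.6, 90.7 and 79.3 TPM in controls. Every treated library lay below every control, and 45.4% of the control level was left. In limma this was a log2 fold change of -1.13 (SE 0.131, adjusted p 2.9e-04), and it ran from -1.28 to -1.04 when each library was left out in turn. SMARCA4 (ENSG00000127616), the main motor, also called BRG1, was at 209.7, 204 and 220.0 TPM against 215, 224 and 213 TPM. Its groups overlapped, with a log2 fold change of -0.04 (SE 0.054, adjusted p 0.548 in limma).

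The share of SMARCA2 in the summed TPM of both motors was 17.8%, 13.7% and 13.5% in knockdown libraries against 26.3%, 28.8% and 27.1% in controls. Mean shares of 15% ± 2.4 and 27.4% ± 1.3 (SD, n = 3) differed by -12.4 percentage points. A 2-sided exact permutation test of 3 against 3 cannot go below p = 0.1, which is the value obtained (0.143 adjusted over 10 sets of paralogs). Summed motor TPM was 249 ± 10.5 against 299.6 ± 13.4.

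Among the scaffold subunits, SMARCC1 (ENSG00000173473, chromosome 3, 47585269 to 47782106) fell and its paralog SMARCC2 did not pass the test. SMARCC1 was at 52.7, 43.9 and 47.01 TPM in knockdown libraries against 80.8, 89.99 and 86.04 TPM in controls, with no overlap (log2 fold change -0.83, SE 0.082, adjusted p 1.5e-04 in limma). SMARCC2 was at 88.9, 86.7 and 84.2 TPM against 86.1, 94.1 and 93.4 TPM (log2 fold change -0.07, adjusted p 0.344 in limma). In controls the pair stood at near equal TPM, with SMARCC2 at 51.6% ± 0.47 of their sum. With the MEN1 shRNA SMARCC2 held 64.4% ± 1.8 (exact p 0.1, adjusted 0.143). Deposited coverage in controls was higher for SMARCC1 (244, 348 and 211) than for SMARCC2 (146, 212 and 126), so their balance depends on the measure. MYL6, on the opposite strand, overlaps SMARCC2 by 1138 bases and rose from 691 ± 22.8 to 1125 ± 303 TPM. No source states that the quantification kept the strands apart, so the reads of this overlap may not have been told apart.

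The BCL7 subunits bind the motor and are alternatives in all 3 SWI/SNF forms. BCL7A (ENSG00000110987, chromosome 12, 122019422 to 122062044) fell by about as much as SMARCA2, from 17.3, 18.9 and 18.3 TPM in controls to 9.24, 5.89 and 8.15 TPM (log2 fold change -1.15, SE 0.148, adjusted p 4.8e-04 in limma). All 3 treated libraries were below all controls. BCL7B, at 51.4, 47.6 and 45.98 TPM against 44.9, 47.4 and 42.5 TPM, overlapped between the groups (log2 fold change 0.10, adjusted p 0.269 in limma). BCL7C, at 49.5, 59.9 and 62.4 TPM against 71.5, 71.1 and 70.5 TPM, fell (log2 fold change -0.31, adjusted p 0.0208 in limma), but the call was lost without any 1 of the control libraries (adjusted p 0.0507 to 0.0558). BCL7A made up 13.6% ± 0.56 of the family's TPM in controls and 6.86% ± 1.6 with the MEN1 shRNA (exact p 0.1, adjusted 0.143). Deposited coverage in controls was 5.27 to 8.74 for BCL7C against 51.8 to 89.1 for BCL7B, so the balance of this family depends on the measure.

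Of the remaining core subunits, ACTL6A fell to 119 ± 4.96 TPM, from 153 ± 4.40 TPM in controls (log2 fold change -0.36, adjusted p 0.00121 in limma). Its neighbour MRPL47, which overlaps its last 123 bases on the opposite strand, fell from 92.3 ± 1.92 to 60.7 ± 5.50 TPM. SMARCE1, the subunit with an HMG box, passed the test although its groups overlapped: 109.9, 75.2 and 78.6 TPM against 125, 107 and 121 TPM (log2 fold change -0.43, adjusted p 0.0343 in limma). That call was lost without MEN1 shRNA replicate 2 or 3 or without control replicate 1 or 3 (adjusted p 0.0868 to 0.108). SMARCB1, the core subunit lost in rhabdoid tumours, was at 108 ± 8.94 against 96.8 ± 3.79 TPM (adjusted p 0.13 in limma), and passed, as higher, with median-of-ratios scaling (adjusted p 0.0337), with scaling without globin and mitochondrial genes (adjusted p 0.0386) and without MEN1 shRNA replicate 2 (adjusted p 0.0357). SMARCD1 and SMARCD2, adaptors that bind transcription factors, did not pass (log2 fold change 0.02 and -0.16).

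**Figure D2:**
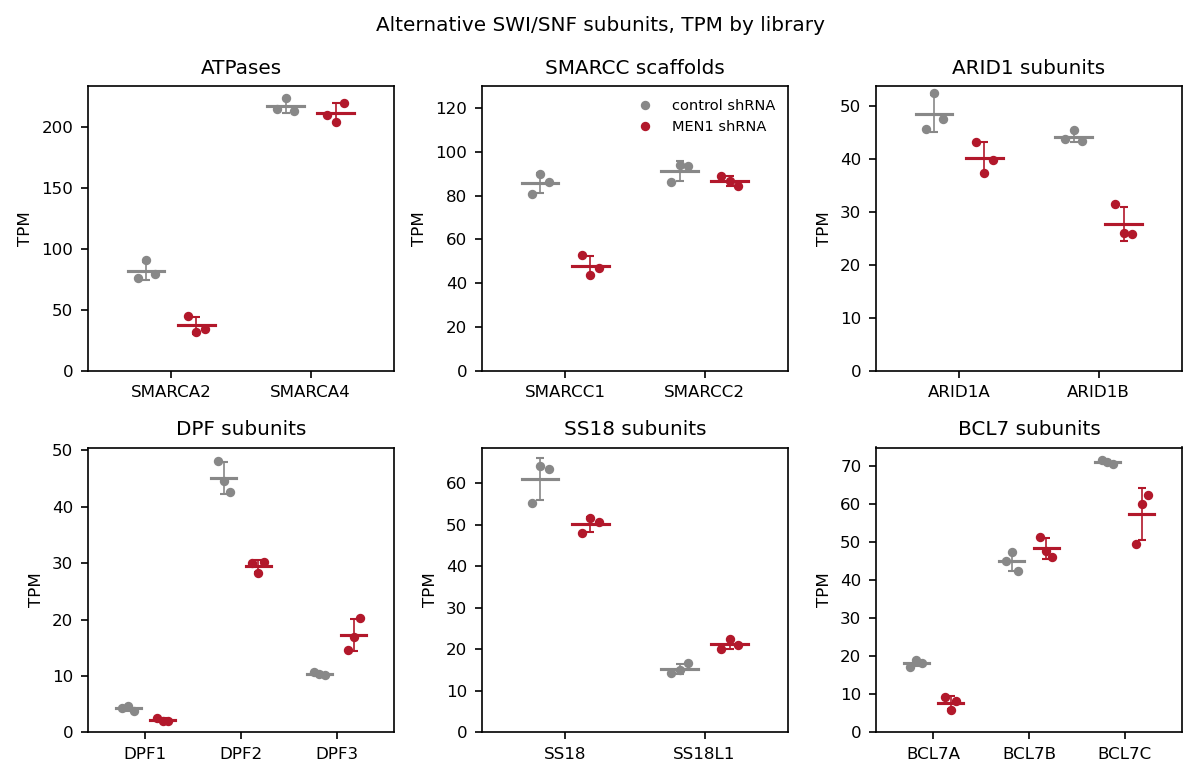
TPM (y axis, linear) of alternative SWI/SNF subunits in each library; grey is control shRNA and red MEN1 shRNA, points run from replicate 1 to 3 from left to right, lines are means and bars SD (n = 3). SMARCA2, SMARCC1, ARID1A, ARID1B, DPF1, DPF2, SS18, BCL7A and BCL7C sit below their controls in all 3 treated libraries. DPF3 and SS18L1 sit above, and SMARCA4, SMARCC2 and BCL7B overlap.

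All 7 genes of the canonical BAF list passed the test, 5 lower and 2 higher, in a comparison in which 53.6% of all genes tested passed. The count was 5 without control replicate 2 or 3, or with scaling without globin and mitochondrial genes. The list holds the ARID1 and DPF subunits and also SS18 and SS18L1, which non-canonical BAF shares. Both ARID1 subunits, large DNA-binding proteins that define the complex, fell. ARID1B (ENSG00000049618) was at 31.5, 26.1 and 25.8 TPM against 43.8, 45.4 and 43.5 TPM, with no overlap (log2 fold change -0.66, SE 0.0887, adjusted p 6.0e-04 in limma). ARID1A fell to 40.2 ± 3.01 TPM, from 48.6 ± 3.45 TPM in controls (log2 fold change -0.27, adjusted p 0.0264 in limma), a call lost without MEN1 shRNA replicate 2 or 3 or control replicate 2 or 3 (adjusted p 0.0561 to 0.0887). The share of ARID1B in their sum was 40.8% ± 1.4 with the MEN1 shRNA and 47.7% ± 1.2 in controls (exact p 0.1, adjusted 0.143).

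The DPF subunits read histone acylation through paired PHD fingers, with DPF2 the widespread form and DPF1 and DPF3 best known from brain, heart and muscle. DPF2 (ENSG00000133884) fell, at 30.02, 28.2 and 30.3 TPM against 48.2, 44.6 and 42.6 TPM (log2 fold change -0.59, SE 0.0722, adjusted p 3.7e-04 in limma). The low DPF1 fell too, at 2.55, 1.96 and 2.04 TPM against 4.31, 4.60 and 3.85 TPM (log2 fold change -0.72, SE 0.134, adjusted p 0.00282 in limma). DPF3 (ENSG00000205683, chromosome 14, 72609034 to 72894101, whose promoter is printed above) rose, at 14.6, 16.98 and 20.2 TPM against 10.8, 10.3 and 10.2 TPM (log2 fold change 0.66, SE 0.12, adjusted p 0.0025 in limma).

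None of the 3 DPF genes overlapped between the groups. Deposited coverage was low for DPF3, at 1.64 to 3.29 over all libraries, against 23.5 to 67.7 for DPF2. DPF2 made up 63.6%, 59.8% and 57.7% of the family's TPM in knockdown libraries against 76.1%, 74.9% and 75.2% in controls. The means differed by -15 percentage points (exact p 0.1, adjusted 0.143). Summed DPF TPM was 48.98 ± 3.11 against 59.8 ± 3.37.

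SS18 and SS18L1, alternative adaptors of canonical and non-canonical BAF of which SS18 is the partner fused in synovial sarcoma, moved in opposite directions. SS18 was at 48.1, 51.6 and 50.8 TPM against 55.3, 64.3 and 63.6 TPM (log2 fold change -0.28, adjusted p 0.0178 in limma), a call lost without control replicate 2 (adjusted p 0.0631) or 3 (adjusted p 0.0621). SS18L1 (ENSG00000184402) rose, at 20.2, 22.4 and 21.1 TPM against 14.3, 14.97 and 16.7 TPM (log2 fold change 0.45, SE 0.0873, adjusted p 0.00365 in limma). Neither gene overlapped between groups. The share of SS18L1 was 29.6%, 30.2% and 29.3% against 20.5%, 18.9% and 20.8% (exact p 0.1, adjusted 0.143), and the sum of both was 71.4 ± 2.87 against 76.4 ± 5.96 TPM.

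**Figure D3:**
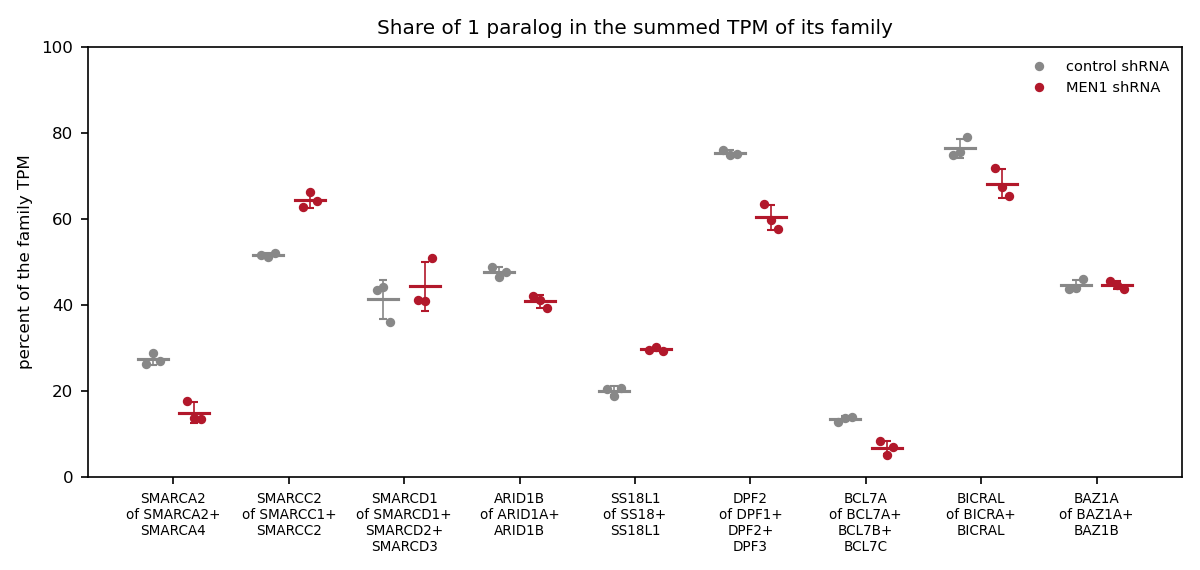
Share of 1 paralog in the summed TPM of its family (y axis, percent) in each library for 9 families; grey is control shRNA and red MEN1 shRNA, lines are means and bars SD (n = 3). The groups do not overlap in 7 families, from -15 percentage points for DPF2 to 12.9 for SMARCC2, and overlap for SMARCD1 and BAZ1A.

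In PBAF, 3 of 4 subunits fell, against 31.5% of all genes tested. BRD7 (ENSG00000166164), which carries a bromodomain, was at 58.9, 55.95 and 61.9 TPM against 77.7, 75.7 and 100.5 TPM, with no overlap and a wide spread in controls (log2 fold change -0.50, SE 0.111, adjusted p 0.0064 in limma). ARID2, the defining subunit, fell to 13.9 ± 0.787 TPM, from 19.9 ± 1.72 TPM in controls (log2 fold change -0.49, adjusted p 0.00302 in limma). PHF10, which takes the place of the DPF proteins in PBAF, fell to 64.1 ± 6.58 TPM, from 87.4 ± 4.48 TPM in controls (log2 fold change -0.45, adjusted p 0.00324 in limma). PBRM1, which carries several bromodomains, was at 42.4 ± 2.77 against 43.3 ± 0.63 TPM (adjusted p 0.719 in limma). GNL3, on the opposite strand, overlaps PBRM1 by 4762 bases and fell from 227 ± 8.00 to 115 ± 13.5 TPM. ADCY7 likewise overlaps BRD7 by 4649 bases, at 44.8, 39.2 and 38.2 TPM in knockdown libraries against 52.7, 52.2 and 53.4 TPM. C6orf120 likewise overlaps PHF10 by 2459 bases, at 44.4, 50.3 and 49.4 TPM against 27.3, 28.7 and 29.2 TPM.

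Of the genes listed for non-canonical BAF alone, which leaves out the shared SS18 and SS18L1, 0 of 3 passed in limma at the adjusted threshold. BRD9, the bromodomain subunit, was at 33.2 ± 1.92 against 37.6 ± 1.28 TPM (log2 fold change -0.17, adjusted p 0.0702). BICRA and BICRAL are alternatives to each other. BICRA was at 7.53, 8.28 and 9.40 TPM against 6.45, 7.09 and 4.68 TPM (log2 fold change 0.42, adjusted p 0.0517 in limma), and BICRAL was at 19.2, 17.1 and 17.8 TPM against 19.2, 21.96 and 17.6 TPM (adjusted p 0.391). BICRA did not overlap between groups and passed under other settings, for example with median-of-ratios scaling (adjusted p 0.0259) and without control replicate 2 (adjusted p 0.0376). The share of BICRAL in the pair was 68.2% ± 3.3 with the MEN1 shRNA and 76.5% ± 2.2 in controls (exact p 0.1, adjusted 0.143).

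Changes among ISWI genes were small. SMARCA5, the ISWI motor of these cells, was at 64.6, 63.2 and 64.7 TPM against 76.6, 73.6 and 76.6 TPM, a small fall without overlap (log2 fold change -0.23, SE 0.0536, adjusted p 0.00767 in limma). SMARCA1 was at 0.0201, 0.0188 and 0.0271 TPM against 0, 0.0288 and 0 TPM. BPTF, the large subunit of NURF that reads methylated histone H3, rose to 73.2 ± 5.81 TPM, from 60.5 ± 4.57 TPM in controls (log2 fold change 0.27, adjusted p 0.0272 in limma), a call lost without MEN1 shRNA replicate 2 or 3 or control replicate 1 (adjusted p 0.0582 to 0.0869). RSF1, the partner of SMARCA5 in the RSF complex, rose to 32.7 ± 2.85 TPM, from 27.5 ± 0.566 TPM in controls (log2 fold change 0.24, adjusted p 0.0356 in limma), a call lost without MEN1 shRNA replicate 2 or any 1 control library (adjusted p 0.0742 to 0.111). On its strand FTH1P16 overlaps RSF1 by 552 bases, at 10.9, 11.3 and 12.4 TPM against 6.38, 7.03 and 7.10 TPM. An unnamed gene overlaps it by 358 bases, at 7.03, 4.86 and 4.64 TPM against 1.26, 3.18 and 3.23 TPM. Reads may have been divided between these genes. For the sum of RSF1 and the unnamed gene limma gave a log2 fold change of 0.34 (adjusted p 0.00878). BAZ1A, BAZ1B and BAZ2A, which guide SMARCA5 to replication sites, heterochromatin and ribosomal genes, did not pass (log2 fold change -0.12, -0.13 and 0.12).

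Of the 6 CHD motors, CHD2 rose, CHD1 fell and 4 did not pass, so that 33.3% changed, against 53.6% of all genes tested. CHD2 (ENSG00000173575, chromosome 15, 92886203 to 93027996), a motor linked to the histone variant H3.3, was at 62.8, 78.7 and 85.5 TPM against 53.7, 52.5 and 45.5 TPM, with no overlap (log2 fold change 0.56, SE 0.121, adjusted p 0.00566 in limma). CHD1, which binds methylated histone H3 at active promoters, was at 32.7, 28.97 and 33.3 TPM against 40.2, 36.5 and 39.7 TPM (log2 fold change -0.29, adjusted p 0.0176 in limma), a call lost without MEN1 shRNA replicate 2 or control replicate 1 or 3 (adjusted p 0.0571 to 0.0578).

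The long noncoding RNA CHASERR, known as a repressor of CHD2 in cis, starts upstream of CHD2 on the same strand, and in the deposited tables the spans overlap by 13499 bases, so reads may have been divided between them. CHASERR rose as well, at 42.3, 46.8 and 39.6 TPM against 29.3, 23.2 and 24.8 TPM (log2 fold change 0.72, SE 0.105, adjusted p 8.8e-04 in limma; named after its values were seen). The sum of both was 105, 126 and 125 TPM in knockdown libraries against 83.1, 75.6 and 70.3 TPM in controls. The sums, like each gene alone, did not overlap between the groups.

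CHD6 was at 15.3, 13.7 and 17.4 TPM against 15.1, 14.2 and 14.3 TPM. CHD7, mutated in CHARGE syndrome, was at 31.4, 29.9 and 31.2 TPM against 31.8, 33.2 and 32.97 TPM. CHD8, linked to autism, was at 41.3, 39.7 and 42.9 TPM against 45.1, 45.3 and 44.9 TPM. Both were lower in every treated library than in any control, by small amounts that did not pass (adjusted p 0.318 and 0.119 in limma). CHD9 was at 24.5, 28.6 and 30.9 TPM against 26.5, 30.2 and 30.7 TPM, and overlapped, as did CHD6.

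Among the H2A.Z motors, INO80 was at 25.05, 25.03 and 27.3 TPM against 30.3, 29.4 and 29.2 TPM (log2 fold change -0.19, SE 0.0687, adjusted p 0.0458 in limma). The call, close to the threshold, was lost in 5 of 6 fits that left out a library (adjusted p 0.0862 to 0.129, all but that without MEN1 shRNA replicate 3) and with median-of-ratios scaling (adjusted p 0.217). EP400 was at 26.9, 27.7 and 30.8 TPM against 29.8, 30.4 and 29.3 TPM and overlapped (adjusted p 0.47 in limma).

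SRCAP (ENSG00000080603, chromosome 16, 30698209 to 30741409) had the largest standard error of the log2 fold change among the 41 genes tested, at 25.4, 17.6 and 9.58 TPM against 12.9, 27.2 and 16.97 TPM (log2 fold change -0.15, SE 0.362, adjusted p 0.763 in limma). An unnamed gene on the same strand (ENSG00000282034, chromosome 16, 30704067 to 30745169) overlaps it by 37343 bases and was at 9.19, 9.49 and 24.3 TPM against 21.3, 16.6 and 28.1 TPM. SRCAP made up 28.2% to 73.5% of the sum of both in the 6 libraries. The sum of SRCAP with the unnamed rows that overlap it was 34.7, 27.6 and 33.9 TPM against 34.2, 43.9 and 46.5 TPM, with SDs of 3.87 and 6.47 TPM against 7.93 and 7.40 TPM for SRCAP alone. For this sum limma gave a log2 fold change of -0.36 (SE 0.134, adjusted p 0.055). The split of TPM between the named and the unnamed gene thus differed between libraries, and the row of SRCAP alone is uncertain.

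**Figure D4:**
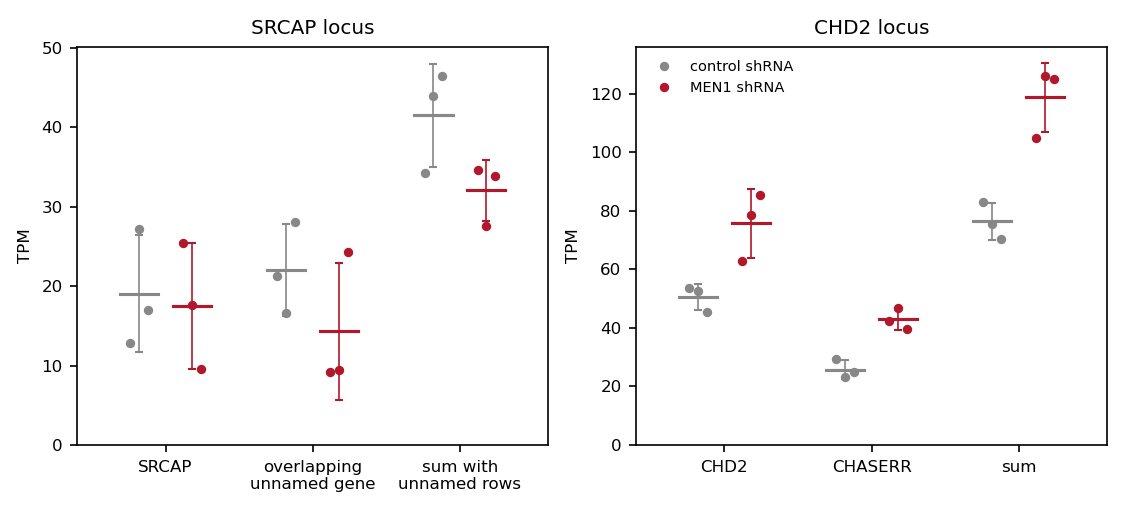
TPM (y axis, linear) in each library of SRCAP, the overlapping unnamed gene and the sum of SRCAP with unnamed overlapping rows (left) and of CHD2, CHASERR and their sum (right); grey is control shRNA and red MEN1 shRNA, lines are means and bars SD (n = 3). SRCAP alone runs from 9.58 to 27.2 TPM with mixed groups, while the CHD2 and CHASERR sum is 105 or more with the MEN1 shRNA and 83.1 or less in controls.

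The other genes of these pathways, 53 listed and 50 tested, were read as a comparison. With the MEN1 shRNA 12 rose (24%) and 14 fell (28%), against 22.1% and 31.5% of all genes tested. In either direction 52% changed, near the 53.6% of all genes, and the median log2 fold change was -0.01. The SRCAP and TIP60 complexes load H2A.Z and acetylate it and histone H4. In the list of their other subunits 6 of 15 genes tested rose and 0 fell, that is 40% and 0%, against 22.1% and 31.5% of all genes tested. Each gene was placed in a single list. That list therefore leaves out subunits placed in other lists, among them RUVBL1 and RUVBL2, which both complexes share with INO80 and which fell. The scaffold gene EPC2 rose to 26.9 ± 1.02 TPM, from 16.7 ± 1.02 TPM in controls (log2 fold change 0.66, adjusted p 3.1e-04 in limma). MORF4L1, a chromodomain subunit, rose to 535 ± 21.2 TPM, from 358 ± 9.78 TPM in controls (log2 fold change 0.58, adjusted p 1.2e-04).

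Among 13 other INO80 subunits, 2 rose and 5 fell, so that 53.8% changed, near the 53.6% of all genes tested. NFRKB, a scaffold of INO80, fell to 13.4 ± 1.68 TPM, from 26.9 ± 2.72 TPM in controls (log2 fold change -0.96, adjusted p 3.4e-04 in limma). RUVBL1, an ATPase subunit shared by INO80, SRCAP and TIP60, fell to 71.4 ± 7.63 TPM, from 125 ± 0.789 TPM in controls (log2 fold change -0.80, adjusted p 1.5e-04). Its partner RUVBL2 (named after its values were seen) fell from 582 ± 28.03 to 375 ± 9.26 TPM. The rises were INO80C (log2 fold change 0.47, adjusted p 0.00468) and TFPT (0.18, adjusted p 0.0435), the latter a call lost in every fit that left out a library but that without MEN1 shRNA replicate 1 (adjusted p 0.07 to 0.139).

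Of 5 other ISWI partners tested, the histone-fold subunit CHRAC1 (log2 fold change 0.67, adjusted p 8.4e-04 in limma) and BAZ2B (0.45, adjusted p 0.00351) rose. The histone chaperone RBBP7 (-0.79, adjusted p 9.7e-04) and POLE3, the histone-fold partner of CHRAC1 (-0.23, adjusted p 0.0074), fell, and CECR2 was listed at 0 in all 6 libraries. The changed partners are 80% of the 5 tested, against 53.6% of all genes tested, in a list where 1 gene moves the share by a large step. BCL11A, a repressor of fetal globin that has been found with BAF, went from 21.1, 19.8 and 17.2 TPM in controls to 5.45, 2.13 and 1.52 TPM (log2 fold change -2.45, SE 0.317, adjusted p 4.9e-04 in limma). ACTL6B, the neuronal paralog of ACTL6A, reached at most 0.532 TPM and BCL11B at most 0.0469 TPM. Of 15 other SNF2-family helicases 2 rose, HELLS (0.58, adjusted p 4.0e-04) and BTAF1 (0.36, adjusted p 0.0102), and 6 fell, with SHPRH (-0.69, adjusted p 4.0e-04) and TTF2 (-0.68, adjusted p 0.00551) the lowest. These 8 are 53.3% of the 15, near the 53.6% of all genes tested.

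**Figure D5:**
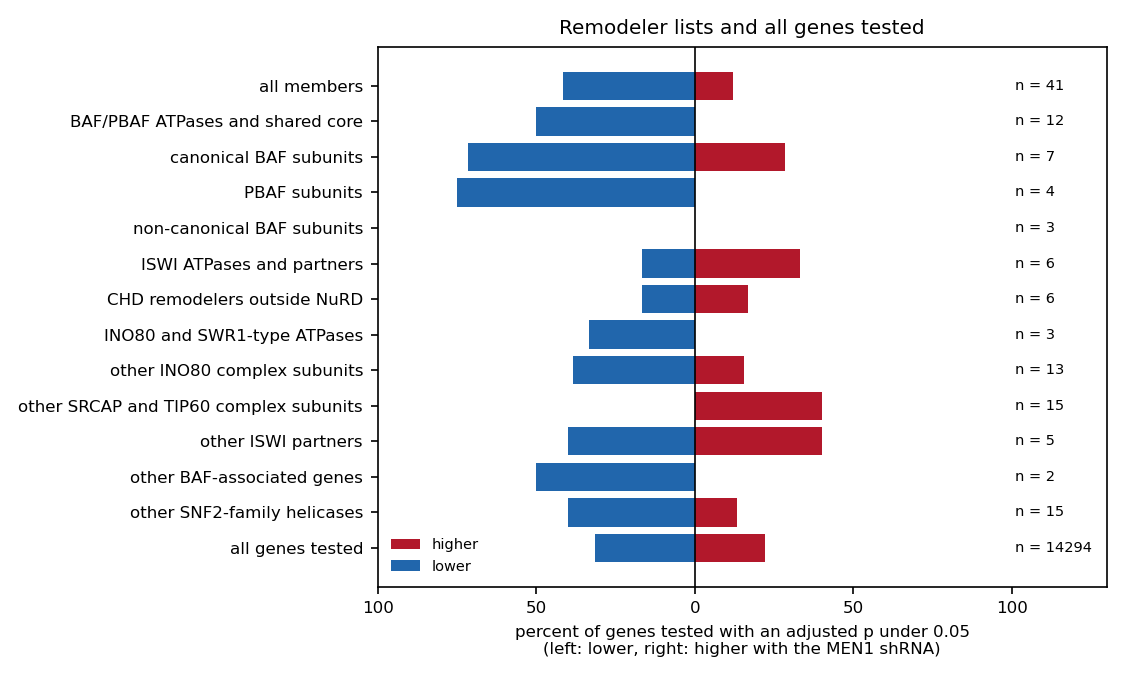
Percent of genes tested that fell (blue, left) or rose (red, right) with the MEN1 shRNA in limma at an adjusted p under 0.05, for each list and for all 14294 genes tested; n is the number of genes tested. All remodeler genes stand at 41.5% lower and 12.2% higher, against 31.5% and 22.1% of all genes, and lists of 2 to 7 genes move by large steps with 1 gene.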

How the data were processed

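The 6 HUDEP-2 libraries, 3 per group, were made from poly(A) RNA with a directional kit per the labels' protocols. The submitters' processing notes name FastQC, Trimmomatic, STAR 2.7.1a, Picard 2.20.4, StringTie 2.0.4 and hg38, with no role or order given. The deposited tables give coverage, FPKM and TPM per gene, scaled by the authors per the file headers. In control replicate 2 the deposited TPM and coverage hold 2 rows with a residue below 0 (recorded as a score), set to 0. The tables hold no counts, so no count model was fitted, and depth was taken from the ratio of coverage to FPKM.

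Values were transformed to log2(TPM + 1), so fold changes understate the change of low genes. The 14294 genes with at least 1 TPM in 3 or more of the 6 libraries entered limma 3.58.1 in R 4.3.3 (lmFit, eBayes with trend, 2-sided, Benjamini-Hochberg over all genes tested, threshold 0.05), MEN1 shRNA minus control. Adjusted p-values of genes are limma's. The step was tested on simulated data. Paralog shares of summed TPM were compared by exact permutation, and shares of deposited coverage were not compared. Gene positions overlapped GENCODE v29, and promoters are from RefSeq. Named in full are the motors, genes past the threshold with a log2 change of 0.5 or more, and paralogs whose calls differ. From each other list, at most 2 genes a direction are named. The genes and lists were chosen with earlier results of these data known. Alternatives were no filter, a mean TPM of 5, FPKM, other scalings, no trend, limma's treat, a replicate block, sums with unnamed overlapping rows and leaving out each library.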

Additional observations from a re-analysis of the deposited data

How the results depend on the processing

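Of 696 comparisons of a remodeler gene's call with an alternative, 600 kept direction and side of the threshold, 71 lost the call, 9 gained it and 16 changed sign. No called gene changed direction. Of the 22 called genes, 13 passed in all alternatives other than limma's treat, and 3 of these 13 (SMARCA2, SMARCC1 and BCL7A) passed under treat too, which tests for a log2 change above 0.5. Under treat, 2126 genes passed, with 0 remodeler genes higher and 3 lower: 3 in the ATPase and core list, 0 in canonical BAF, PBAF, ISWI, CHD and INO80 and SWR1-type lists, 2 among other INO80 subunits and 0 among other ISWI, SNF2 and SRCAP or TIP60 genes. Without a filter, or without a trend, 3 remodeler genes were higher, the ISWI list had 1 call and the INO80 and SWR1-type list 0. With median-of-ratios scaling 11 were lower and 7 higher, the CHD list had 1 call, the INO80 and SWR1-type list 0 and the non-canonical BAF list 1. FPKM, and scaling without globin and mitochondrial genes, gave 0 and 1 in the last 2 lists, and a mean TPM of 5 or the sum with unnamed rows gave 1 in non-canonical BAF. Treat passes fewer genes by construction; for the others the cause was not tested.

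Leaving out 1 library at a time gave 3 to 5 higher (3 without control replicate 1) and 11 to 16 lower (11 without control replicate 3). Calls over all genes fell in these fits too, from 7657 to between 6577 and 7542. The ISWI list had 1 to 3 calls (1 without MEN1 shRNA replicate 2 or control replicate 1), CHD 1 to 2 (1 without MEN1 shRNA replicate 2 or control replicate 1 or 3), INO80 and SWR1-type 0 to 1 (1 without MEN1 shRNA replicate 3) and non-canonical BAF 0 to 1 (1 without control replicate 2). Calls ran from 4 to 6 in the ATPase and core list and from 5 to 7 in canonical BAF (5 without control replicate 2 or 3).

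Signs turned in genes that did not pass: with median-of-ratios scaling SMARCA4 (0.046), SMARCC2 (0.014), PBRM1 (0.054), CHD7 (0.0056), CHD9 (0.028) and EP400 (0.017), and without globin and mitochondrial genes SMARCA4 (0.025), PBRM1 (0.033) and CHD9 (0.0081). Over the fits that left out a library, the log2 change ran from -0.097 to 0.13 in SMARCD1, -0.078 to 0.015 in PBRM1, -0.0012 to 0.16 in CHD6, -0.13 to 0.032 in CHD9 and -0.45 to 0.21 in SRCAP, and the share of SMARCD1 from -0.287 to 4.69 and of BAZ1A from -0.33 to 0.92 percentage points.

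Deviations of same-numbered libraries from their group means hardly correlated (0.0171, -0.0265 and -0.0124). On the second principal component, 6.67% of the variance, replicates 1 to 3 had the same order in both groups. They lay at 17.34, 0.7264 and -14.95 with the MEN1 shRNA and at 13.52, -3.394 and -13.24 in controls. Whether same-numbered libraries were handled together was not tested. A replicate block called 7012 genes, 4 remodeler genes higher and 15 lower, kept 19 of 22 calls and left 0 in the INO80 and SWR1-type list. No read counts were used, so these values do not give how far depth limits genes with little coverage. Deposited coverage was 1.64 to 3.29 in DPF3, 1.19 to 2.80 in BICRA and 1.85 to 7.56 in DPF1. Its median over the remodeler genes tested and all libraries was 44.4.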
